A study of Rattus norvegicus with 20 samples.

Results

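The ventral subiculum was compared with the dorsal subiculum in rats that had been through the preconditioning protocol. The comparison took all 5 ventral and all 5 dorsal libraries that the titles mark as preconditioning, 10 of the 20 libraries of the series. The animals were wild-type Wistar rats of 3 months, and the tissue was taken 24 hours after the protocol, in which, going by the series title, stimulating the perforant pathway electrically evokes acute seizures. The other 10 libraries, 5 dorsal and 5 ventral, came from control rats of the same strain, genotype and age, and the labels do not say what the controls received. Each library was made from laser-microdissected tissue of frozen brain sections with a stranded mRNA kit, so it holds RNA of every cell type inside the outline. The labels do not say how many animals gave a library, or whether the dorsal and ventral libraries of one number came from one animal. Nothing in the labels says that the libraries of a group came from separate animals, and if they did not, the p-values below measure technical spread.

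The subiculum is the main output station of the hippocampus. Its dorsal part is known for projections to the retrosplenial cortex and the mammillary bodies and for a role in spatial memory. The ventral part is known for projections to the hypothalamus, the amygdala and the nucleus accumbens and for a role in stress responses and emotion. The perforant pathway carries input from the entorhinal cortex into the hippocampal formation, the subiculum included.

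Genes are given by their Ensembl rat identifiers. Of the 32883 identifiers in the count table, 0 occurred in the reference table of 47357 rat genes, so the genes have no names here. The labelled tissue was for this reason not checked against marker genes, and no pathway or cell type list was scored. No gene sequence is printed for the same reason.

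Total counts ranged from 6811740 to 15070017 in the dorsal libraries and from 7878493 to 19291639 in the ventral ones, and they did not separate the regions (two-sided exact permutation p = 0.754, n = 5 per group). The 100 most abundant genes of a library took 22.1% to 23.9% of the dorsal counts and 19.9% to 25.4% of the ventral counts (exact p = 0.667). Between 13129 and 13724 genes reached 1 CPM (counts scaled to the size of the library) (exact p = 0.167). The adjusted p-values of 5 such measures were 0.675 or higher after Benjamini-Hochberg correction. The first principal component of log2 CPM held 53.6% of the variance. Dorsal libraries lay between -40.5 and -31.2 on it and ventral libraries between 32.6 and 43.8. The second held 15.5% and cut across the regions. Dorsal library 2 (-28.4) and ventral libraries 2 (-26.1) and 5 (-25.9) lay at one end of it, and the other 7 lay between -0.212 and 26.9. The 10 most abundant genes took 9.33%, 9.23% and 11.1% of the counts of those 3 libraries, against 5.34% to 9.27% in the others. Without these 3 libraries, 4380 genes differed between the regions. This fit was chosen after seeing the data, and 3166 of the genes reported next were among the 4380.

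The regions differed in a large part of the measured transcriptome. Of 13640 genes tested with edgeR's quasi-likelihood test, 3647 passed an adjusted p-value of 0.05, or 26.7%. Ventral levels were the higher ones for 1636 genes (12% of those tested) and dorsal levels for 2011 (14.7%). At least 2-fold differences made up 1149 calls, or 8.42% of the genes tested. The difference was below 2-fold for 68.5% of the called genes, with a median of 1.66-fold. In 2471 of the called genes the CPM ranges of the 5 dorsal and 5 ventral libraries did not overlap. Over all genes tested the ranges did not overlap for 2603, or 19.1%. In bulk tissue a lower level can come from fewer cells of a type or from less RNA per cell, and these cannot be told apart.

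Most of these differences did not rest on one library. When each of the 10 libraries was left out in turn, between 2917 and 3678 genes passed, and 2603 of the 3647 (71.4%) passed in all 10 of these fits. They included 1047 of the 1149 genes with a difference of at least 2-fold. Of the 3647 genes, 0 changed sign in any of the 19 alternative fits that tested them. These fits reuse the same libraries, so a change of sign in a called gene was unlikely from the start. A test that required the difference itself to exceed 2-fold (glmTreat) called 368 genes, 183 of them ventral and 185 dorsal.

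**Figure D1:**
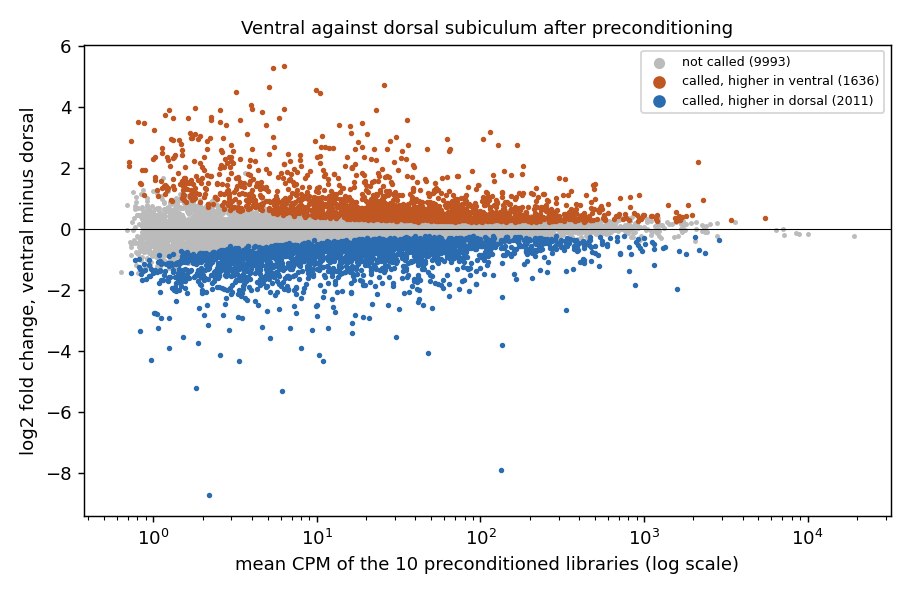
Each point is 1 of the 13640 genes tested, placed by its mean CPM over the 10 preconditioned libraries (x axis, log scale) and its log2 fold change, ventral minus dorsal (y axis). Coloured points are the genes called by edgeR's quasi-likelihood test at an adjusted p-value of 0.05, 1636 with ventral (orange) and 2011 with dorsal (blue) levels higher. The lowest point had 0 counts in every ventral library, so its fitted height depends on the prior count and is no measured fold.

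The direction of the differences varied with their size. Among called genes under 1.5-fold, 763 were higher in the ventral and 592 in the dorsal region. From 1.5-fold to 4-fold the order was the other way, with 734 ventral and 1319 dorsal genes. At 4-fold and above it turned again, with 139 ventral and 100 dorsal genes. Beyond 8-fold there were 43 ventral and 27 dorsal genes. The control libraries, which are separate samples, showed the same order above 1.5-fold, with 864 ventral and 1344 dorsal genes up to 4-fold and 167 ventral and 120 dorsal genes beyond it. Under 1.5-fold the controls held 480 ventral and 497 dorsal genes. No test was made of the difference between these splits.

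Direction also varied with abundance. The tested genes were divided by mean level into 4 abundance groups of 3410. In the lowest group, with a median of 2.68 CPM, 303 genes were higher in the ventral and 633 in the dorsal region, so that 32.4% of the calls were ventral. The ventral share was 40.6% in the second group and 49.4% in the third. In the highest group, with a median of 123 CPM, 513 genes were ventral and 369 dorsal, a ventral share of 58.2%. Over all genes of a group, called or not, the share with higher ventral levels rose from 40.7% in the lowest group to 62.8% in the highest. In the highest group the calls were thus no more ventral than all its genes. The share of genes called hardly varied, from 25.9% to 27.7% over the groups. Size was linked to abundance: the median absolute log2 fold change of calls was 1.17 in the lowest and 0.483 in the highest group. The splits by size and by abundance are therefore not independent, and their parts were not tested apart.

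Across all 19 alternative fits the ventral share stayed between 30.6% and 42.2% in the lowest group and between 53.9% and 60.6% in the highest. The groups were redrawn among the genes of each fit. The 42.2% came from no filter beyond 1 count and the 53.9% from a mean count of at least 50. Without the 3 libraries at one end of the second component the shares were 39.2% and 55.6%. Thinning every library to 6811740 counts gave 32.7% and 56.5%, and scaling by DESeq2 size factors gave 32.7% and 58.9%. In the lowest group, genes at least 2-fold apart were also mostly dorsal, 395 against 212. In the highest group they were nearly even, at 55 ventral and 50 dorsal genes. Most calls in that group were below 2-fold, since 11.9% reached it.

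Dorsal library 2 moved with this split. In it 380 genes were at least 2-fold above the mean of the other dorsal libraries, against 49 to 99 in those. Without it the ventral share was 36.2% in the lowest and 54.9% in the highest group, so the order of the groups was the same. Its part in the remaining split was not tested. In the controls the ventral share of the calls in the lowest group was 36.6%. Over all genes of that group, called or not, 49% were higher in the ventral region in the controls (median log2 fold change -0.017) and 40.7% after preconditioning (median -0.14), so the dorsal lean in the controls was seen among the calls. The calls of the highest group were mostly dorsal in the controls, with 386 ventral and 495 dorsal genes, or 43.8% (44.7% with DESeq2 size factors). Over all genes of that group, 49.7% were higher in the ventral region in the controls (median log2 fold change -0.0013). After preconditioning 62.8% were (median 0.068). Whether the conditions differ in this respect was not tested.

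**Figure D2:**
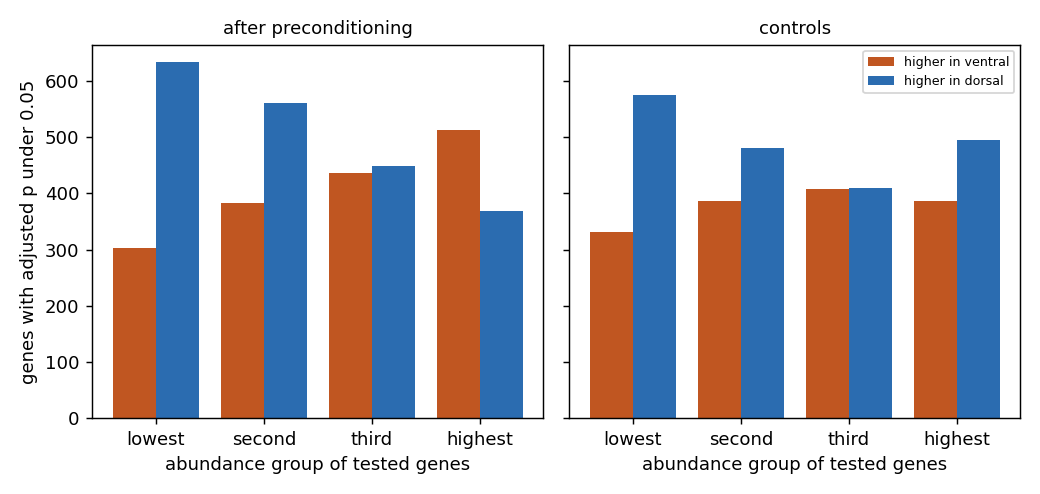
Bars give the number of genes with an adjusted p-value under 0.05 (y axis) in each of the 4 abundance groups (x axis), after preconditioning (left) and in controls (right). After preconditioning the ventral bars rise from 303 to 513 genes and the dorsal bars fall from 633 to 369, while in controls the dorsal bar is the taller one in the highest group, at 495 against 386.

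Among the 100 most abundant genes, 38 were called, 23 higher in the ventral and 15 in the dorsal region. Over all genes tested 26.7% were called. Only 3 of the 38 differed at least 2-fold, 1 ventral and 2 dorsal. Among the 1000 most abundant genes 311 were called, and 37 of them differed at least 2-fold, 20 ventral and 17 dorsal. Over all genes tested, 8.42% were called with a difference of at least 2-fold. Most genes at 4-fold or more were of low abundance: 139 of the 239 belonged to the lowest group and 13 to the highest. The median standard error was 0.278 in the lowest group and 0.107 in the highest. Genes of low abundance thus needed a larger estimate to be called, and the part of this in the split was not tested.

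Few genes were close to absent from one region. A gene was counted as such if it had at most 3 counts in each library of one region and a mean of at least 1 CPM in the other. After preconditioning 1 gene met this for the dorsal region, with 1.63 CPM in the ventral libraries. For the ventral region 4 genes met it, with 1.86 to 4.37 CPM in the dorsal libraries. All 5 passed the adjusted p-value of 0.05. In the controls 7 genes were near absent from the dorsal and 4 from the ventral region, and 2 of the latter were among the 4 found after preconditioning. Since 3 counts corresponded to between 0.156 and 0.44 CPM in the preconditioned libraries, lower levels were not detectable at this depth. In the control libraries 3 counts corresponded to between 0.147 and 0.972 CPM.

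The 4 genes named here have the largest fitted fold changes among called genes with a mean count of at least 20 and no overlap between the regions. In the ventral direction 1066 genes met these conditions and in the dorsal direction 1291. The next in order had log2 fold changes of 4.72 and -5.32. The fitted value of ENSRNOG00000046487, with 0 counts in every ventral library, depends on the prior count. Its place in this order is therefore not a measured one.

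ENSRNOG00000017712 had the largest increase toward the ventral region. Its CPM in dorsal libraries 1 to 5 was 0.264, 0.622, 0.146, 0 and 0.419. In ventral libraries 1 to 5 it was 14.2, 15.25, 11.2, 9.70 and 11.05. The lowest ventral library was thus far above the highest dorsal one, and the dorsal values rested on at most 8 counts. The log2 fold change was 5.34 (SE 0.38, adjusted p = 2.7e-07). In the controls the ventral libraries held less of it, between 0.960 and 3.10 CPM, against 0 to 0.361 CPM in the dorsal ones. The control log2 fold change was 2.88 with an SE of 0.47 (adjusted p = 0.000484). The regional difference was 2.48 log2 units larger after preconditioning (SE 0.73), which did not pass the interaction test over all genes (adjusted p = 0.319).

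ENSRNOG00000052017 showed a regional difference of similar size in both conditions. After preconditioning its CPM was 0.0879, 0.467, 0.292, 0.0658 and 0.419 in dorsal libraries 1 to 5, from 1 to 6 counts. It was 14.6, 13.45, 7.62, 8.55 and 8.41 in ventral libraries 1 to 5. The groups did not overlap, as the choice of genes required, and ventral libraries 1 and 2 were the highest. The log2 fold change was 5.29 (SE 0.38, adjusted p = 2.8e-07), against 4.64 (SE 0.33, adjusted p = 4.61e-07) in the controls. The interaction was 0.65 (SE 0.58, adjusted p = 0.902).

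ENSRNOG00000046487 had counts in the dorsal libraries alone after preconditioning. Its CPM was 4.92, 3.89, 3.35, 5.66 and 4.02 in dorsal libraries 1 to 5, from 23 to 86 counts, and it had 0 counts in all 5 ventral libraries. Against 3 counts per ventral library, or 0.277 CPM on average, the dorsal level was at least 15.8-fold higher (adjusted p = 2.02e-06). In the controls it measured 1.74 to 7.43 CPM in the dorsal libraries, 11 counts in ventral library 4 and 0 counts in the other ventral libraries. The control log2 fold change was -4.73 (SE 0.67, adjusted p = 0.000138). The interaction did not pass (adjusted p = 0.62), and its fitted size depends on the prior count.

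ENSRNOG00000004179 was the most abundant of the 4. Its CPM was 246, 188, 247, 389 and 258 in dorsal libraries 1 to 5. It was 0.532, 0.747, 1.79, 2.30 and 0.755 in ventral libraries 1 to 5, from 5 to 18 counts. Dorsal library 4 was the highest, and the regions were separated by a wide gap. The log2 fold change was -7.90 (SE 0.30, adjusted p = 2.05e-09). In the controls it was -6.36 (SE 0.72, adjusted p = 2.97e-05), with ventral control 4 at 15.4 CPM and the other ventral controls at or below 2.88 CPM. The interaction of -1.56 (SE 0.86) did not pass (adjusted p = 0.803).

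**Figure D3:**
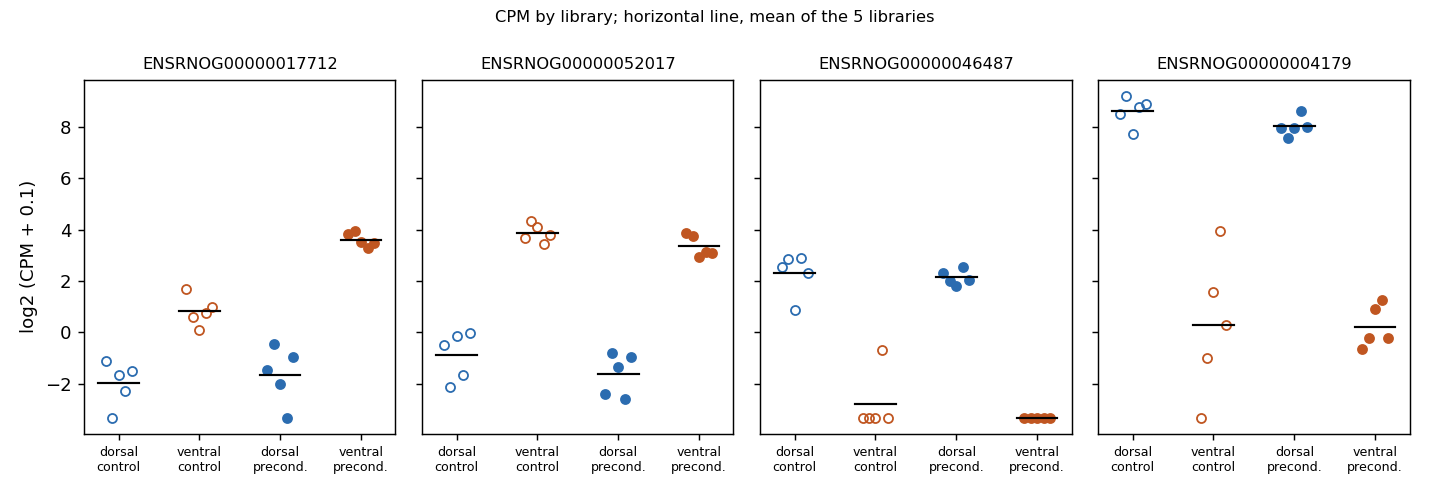
Points give log2 (CPM + 0.1) of 4 genes (y axis) in each of the 5 libraries of the 4 groups (x axis), open for controls and filled after preconditioning, and lines give group means. In all 4 panels the dorsal and ventral libraries of a condition do not overlap, which the choice of genes fixed for the filled points. The ventral libraries of ENSRNOG00000017712 lie higher after preconditioning (9.70 to 15.25 CPM) than in controls (0.960 to 3.10 CPM).

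The regional differences found after preconditioning were then looked up in the controls, which share no library with them. Of the 3647 called genes, 3577 were also tested in the controls. There 3489 (97.5%) had the same sign, against 77.9% of all 13372 genes tested in both conditions. In the controls 25.7% of the genes tested were called, and 2405 of the 3577 genes were among them. These 2405 genes were 67.2% of the calls after preconditioning and 70% of the calls in controls that could be compared. Of the 239 genes at 4-fold or more, 24 did not pass the filter on low counts in the controls. Of the other 215, 206 were called there with the same sign. Of the 70 genes at 8-fold or more, 8 were not tested in the controls, and the 62 that were tested were called there with the same sign.

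The sets of genes with the wider differences were also apart in the controls. The 445 ventral genes at 2-fold or more made up 2.71% ± 0.21 (SD, n = 5) of the counts of the ventral preconditioned libraries and 0.989% ± 0.078 of the dorsal ones. In the controls, which were not used to choose them, they made up 2.40% ± 0.093 and 0.823% ± 0.14. The 704 dorsal genes at 2-fold or more made up 2.83% ± 0.20 of the dorsal and 1.0% ± 0.088 of the ventral counts after preconditioning. They made up 2.87% ± 0.31 and 1.04% ± 0.075 in the controls. For both sets the dorsal and ventral control libraries did not overlap.

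**Figure D4:**
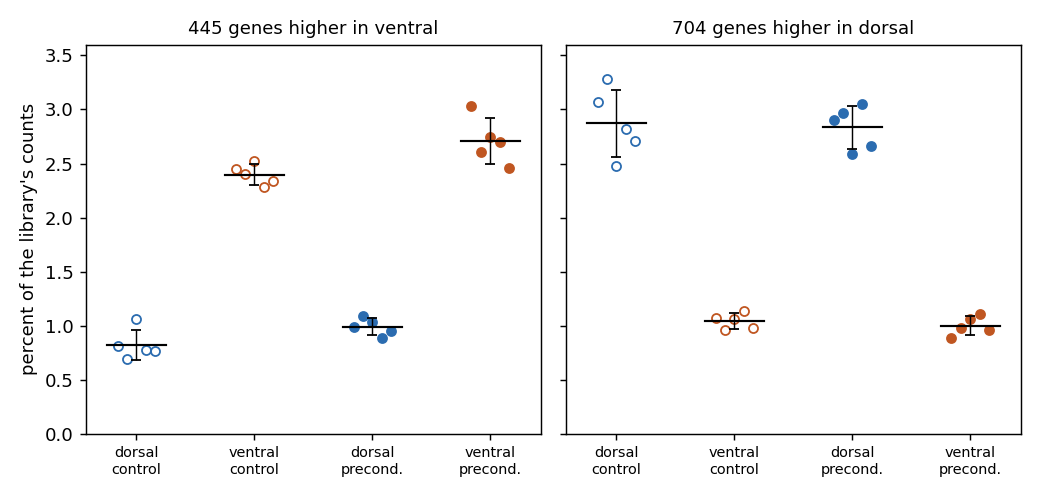
Points give the percent of each library's counts (y axis) that came from the 445 ventral genes (left) and the 704 dorsal genes (right) at 2-fold or more after preconditioning, in the 4 groups (x axis), with lines for the mean and bars for the SD of 5 libraries. The filled points are the libraries that chose the genes, and the open control points, which did not, lie between 2.28% and 2.52% (ventral) and 0.694% and 1.06% (dorsal) in the left panel.

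The median estimate was smaller in absolute size after preconditioning than in the controls. Among the 2400 genes called in both conditions with the same sign, 1572 had the larger fold change in the controls and 827 after preconditioning. The median absolute log2 fold change was 0.829 after preconditioning and 0.947 in the controls. For 90.7% of these genes the fold changes of the conditions were within 1.5-fold of each other. Over all 13372 genes the median absolute log2 fold change was 0.227 after preconditioning and 0.273 in the controls. The standard errors moved with it, at a median of 0.145 after preconditioning and 0.168 in the controls, and their part in the difference was not tested. The control libraries held 8011902 to 19736089 counts in the dorsal and 3087146 to 20463678 in the ventral group. The part of this depth was not tested either.

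A further 1172 genes were called after preconditioning and not in the controls. This does not show that their regional difference arose with the treatment. In the controls 1089 of them (92.9%) had the same sign, and 437 of those had an unadjusted p-value under 0.05. Over all 13509 genes tested in the controls, 5007 had such a p-value, of either sign. Their median absolute log2 fold change was 0.524 after preconditioning, and the median in the same direction was 0.30 in the controls. In the interaction test 6 of the 1172 passed, and 20 with the replicate number as a block. Over all genes the shares that passed were 0.0781% and 0.44%. The 1172 were chosen by a difference in calls between the conditions, which bears on these counts.

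The test of the difference between the conditions was the interaction over all 20 libraries. It called 11 of 14087 genes, or 0.0781%, and 948 had an unadjusted p-value under 0.05. With the replicate number as a block it called 62 genes, or 0.44%, including the 11. By estimate, 4 of the 11 had opposite signs in the conditions, and 2 of these 4 were called between the regions in both. In another of the 4 the control log2 fold change was close to 0, at -0.045. Another 6 were higher in the ventral region in both conditions by estimate, with the wider gap after preconditioning. Their log2 fold changes were 0.03 to 0.38 in the controls and 0.84 to 1.51 after preconditioning. The remaining gene had a narrower gap after preconditioning. Among the 62 genes of the blocked fit, 30 had opposite signs by estimate, 13 had a wider and 19 a narrower gap after preconditioning. Of the 11 genes, 9 were called between the regions after preconditioning and 5 in the controls. The number depended on single libraries. It was 6 without dorsal control 2, ventral control 3, dorsal preconditioning 5, ventral preconditioning 1 or ventral preconditioning 3. It was 7 without ventral control 5, dorsal preconditioning 3 or ventral preconditioning 4. It was 17 without dorsal control 3 and 20 without ventral preconditioning 5. DESeq2 called 55 genes, including the 11.

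In ENSRNOG00000023633 the order of the regions was reversed. After preconditioning its CPM was 27.5, 20.85, 23.2, 17.9 and 20.6 in dorsal libraries 1 to 5 and 35.7, 45.2, 45.7, 33.7 and 31.0 in ventral libraries 1 to 5. The ventral libraries all lay above the dorsal ones, by 0.80 on the log2 scale (SE 0.14, adjusted p = 0.000889). In the controls the dorsal libraries were higher on average, at 5.31 to 10.25 CPM against 2.17 to 5.865 CPM, and these ranges overlapped. The control log2 value was -1.23 (SE 0.28, adjusted p = 0.00492). The difference between the conditions was 1.98 (SE 0.31, adjusted p = 0.00767), and it passed in all 23 alternative fits. Mean CPM was higher after preconditioning in both regions, at 22.0 against 8.26 in the dorsal and 38.3 against 3.31 in the ventral libraries.

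ENSRNOG00000009540 was called between the regions in the controls (-1.44, SE 0.26, adjusted p = 0.000966) and not after preconditioning (0.23, SE 0.20, adjusted p = 0.455). Its CPM after preconditioning was 3.955, 2.26, 2.77, 3.16 and 3.26 in dorsal libraries 1 to 5 and 3.295, 3.49, 4.37, 4.21 and 3.02 in ventral libraries 1 to 5, so the groups overlapped. The interaction was 1.67 (SE 0.31, adjusted p = 0.0293). It fell short of the threshold in 10 of 23 alternative fits, with adjusted p-values of up to 0.0753.

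ENSRNOG00000016388 was the gene with the narrower gap. In the controls it measured 41.1 to 72.5 CPM in the dorsal and 111 to 146 CPM in the ventral libraries, which is 1.21 on the log2 scale (SE 0.15, adjusted p = 4.72e-05). After preconditioning its CPM was 82.3, 84.1, 81.4, 71.0 and 84.9 in dorsal libraries 1 to 5 and 79.9, 100.5, 80.9, 92.4 and 102.9 in ventral libraries 1 to 5. The groups overlapped, and the log2 fold change was 0.18 (SE 0.098, adjusted p = 0.217). The interaction was -1.04 (SE 0.18, adjusted p = 0.0175) and fell short of the threshold in 5 of 23 alternative fits, with adjusted p-values of up to 0.0549.

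**Figure D5:**
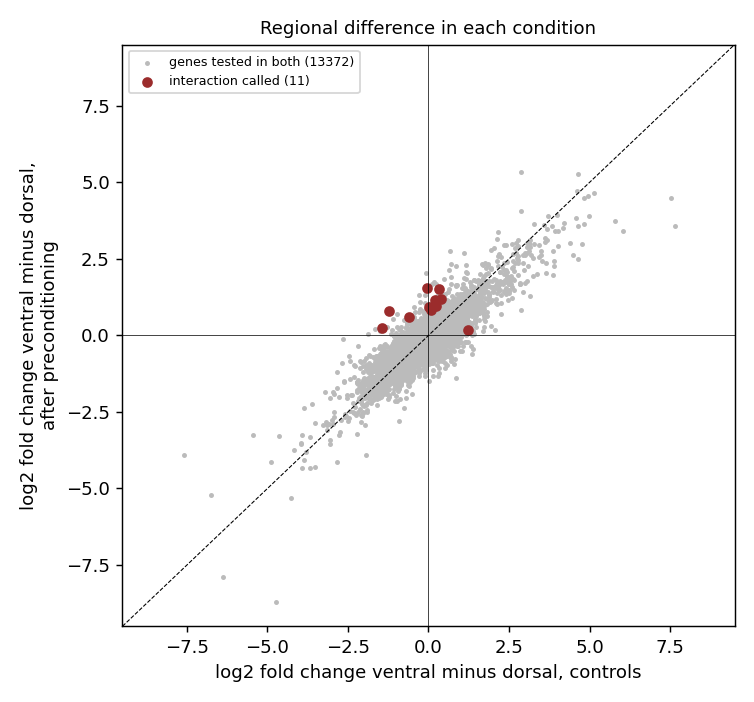
Each point is 1 of 13372 genes tested in both conditions, placed by its log2 fold change, ventral minus dorsal, in controls (x axis) and after preconditioning (y axis), and the dashed line marks equal values. The 11 genes called in the interaction test (red) lie away from the dashed line, 10 above it and 1 below it.

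The 5 genes that were called in both conditions with opposite signs were all higher in the ventral region after preconditioning, by log2 fold changes of 0.51 to 0.80. The interaction test called 2 of them, and all 5 with the replicate number as a block. Among the 1080 genes at least 2-fold apart after preconditioning and tested in the controls, 12 had the opposite sign in the controls, 168 were not called there, and 4 were called in the interaction test.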

How the data were processed

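The authors deposited 1 table of raw counts per Ensembl rat gene, with 1 column per library and 32883 genes. Per the submitters' processing notes, STAR, DESeq2 and the build Rnor_5.0 were used; versions, the counting tool, the annotation and the strand setting are not given in the sources used here. Reads of paralogs or overlapping genes may have been split or dropped. Treated columns carry the letter e where titles carry p, and number and region letter gave the match, which assumes that both letters mean the same treatment. All 20 columns were used.

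Tests of the counts used R 4.3.3 and edgeR 4.0.16 (filterByExpr, TMM scaling, robust quasi-likelihood F-test, Benjamini-Hochberg adjusted p-value under 0.05). Each regional comparison was fitted on its own 10 libraries and the interaction on all 20. The standard error is the log2 fold change divided by the square root of F. CPM used 1 TMM scaling over the 20 libraries. Principal components used log2 CPM with a prior count of 2. Groups came from the titles. Within each group the libraries differed beyond counting noise, with a chi-square per degree of freedom of 5.58 to 65.4. The scripts were tested on simulated data.

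Genes were named by a rule, at up to 2 per direction since no gene had a symbol. For the regional difference they were called, with a mean count of at least 20 and no overlap, and ranked by fold change. For the interaction they were called in that test and ranked by the log2 difference, and 1 called gene was negative. The gene lists and cell type markers planned for this comparison were not run, since they are lists of symbols. The comparison, lists and rule were chosen with earlier results of these data known. Alternatives were DESeq2 1.42.0, DESeq2 size factors, limma-voom 3.58.1, other filters and thresholds, a replicate block, a fit of all 20 libraries and each library left out. Thinned counts and a fit without 3 libraries were added after the data had been seen. Floors of 3 counts cover counting error only. Figures were drawn with matplotlib 3.10.9.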

Additional observations from a re-analysis of the deposited data

Results flagged for a closer look

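Of 56 groups of 5 values searched for a library far from the other 4, 7 held one. A rate of 1 in 20, which assumes independent normal values, would give 2.8. Some groups are linked measures or hold mostly 0 counts, so the 2 numbers make no test. A count was found for 17931 genes in ventral preconditioning 5, against 16867 to 17072 in the others, and it was also the deepest library, with 19291639 counts. On the first principal component ventral preconditioning 1 lay at 43.8, beyond the 32.6 to 35.3 of the other ventral libraries. Dorsal preconditioning 2 held 380 genes at least 2-fold above the mean of the rest of its group, against 49 to 99. Dorsal preconditioning 3 held 234 genes at least 2-fold below it, against 116 to 142, and it was the shallowest of the 10 libraries, with 6811740 counts. ENSRNOG00000046487 measured 0.529 CPM in ventral control 4 and 0 in the other ventral controls. ENSRNOG00000004179 measured 15.4 CPM in the same library, with at most 2.88 in the other ventral controls. Both genes are higher in the dorsal region. ENSRNOG00000016388 measured 71.0 CPM in dorsal preconditioning 4, below the 81.4 to 84.9 of the rest.

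The regional difference itself differed between the conditions for 11 genes by the interaction test. The log2 difference was 1.98 for ENSRNOG00000023633, 1.67 for ENSRNOG00000009540 and -1.04 for ENSRNOG00000016388.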

How the results depend on the processing

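The number of genes called between the regions after preconditioning stayed within 1.5 times of 3647 in 19 of 21 alternatives, with 2917 to 3678 genes over the fits that left out 1 library, 4006 with DESeq2 and 4503 with limma-voom. The exceptions were stricter by construction: 2185 genes at an adjusted p-value under 0.01 and 368 with a minimum fold of 2 (glmTreat). The 4 genes named for the regional difference passed in every fit that tested them. Counts at 4-fold or more moved with the filter, from 139 ventral and 100 dorsal genes to 233 and 212 with no filter beyond 1 count and to 68 and 60 at a mean count of at least 50.

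With the replicate block, 4190 genes passed after preconditioning, including 3568 of the 3647, and 4917 in the controls. Same-numbered preconditioned libraries of the 2 regions deviated from their group means with correlations across genes of 0.033 to 0.395, 4 of 5 of them over 0.1, and 3 of 5 dorsal libraries correlated best with the ventral library of their own number. In the controls all 5 were over 0.1, at 0.227 to 0.399, and 5 of 5 dorsal libraries correlated best with their own number. A cut-off of 0.1 for every pair was met in the controls and missed by 1 pair after preconditioning. What gave rise to these correlations was not tested, so they do not show a pairing. The genes shared between the conditions were counted from the fits without the block. The labels do not state a pairing. The interaction was called for 62 genes with the replicate block, 46 positive and 16 negative, including the 11, and for 55 with DESeq2. It was called for 6 to 20 genes over the fits that left out 1 library. In the controls 2736 to 3941 genes were called over such fits. Genes under about 0.156 to 0.44 CPM, or 3 counts, were beyond the depth of the 10 libraries.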
